A study of Homo sapiens with 4 samples.

Results

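The replication-dependent histone genes were taken as all genes whose symbol begins with HIST1H, HIST2H, HIST3H or HIST4H, which are the cluster names of the older histone nomenclature used in the deposited gene table. This rule found 71 of 36601 genes, made up of 6 genes for linker histone H1, 17 for H2A, 18 for H2B, 15 for H3 and 15 for H4. Their messages were counted in H9 cells, an established human embryonic stem cell line held in the naive state, grown as aggregates or as blastoids, which are embryo models with a cavity, a trophectoderm-like wall and an epiblast-like cell mass. All groups shared the naive H9 culture and the first steps of blastoid induction. They differed in the dimethyl ester of α-ketoglutarate (dm-αKG), a cell-permeable form of a metabolite that serves many dioxygenases. It was given at 4 mM or 0 mM for the first 40 h. Aggregates were taken at 40 h. Blastoids with a single cavity were picked at 120 h. By the study's methods, they had by then been moved to a later medium without LIF and some of the inhibitors, which aggregates never received. Run 1 pooled hashtagged blastoids and aggregates at 4 and 0 mM, and run 2 pooled hashtagged blastoids at 4 and 0 mM. An arm below means 1 hashtagged culture in 1 run, which gives 2 blastoid arms and 1 aggregate arm at each dose.

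These genes encode the bulk of the chromatin protein laid down behind the replication fork. H2A, H2B, H3 and H4 form the nucleosome core, and H1 binds the linker DNA between cores. Their messages are made mainly in S phase, lack introns, and end in a conserved stem-loop instead of a poly(A) tail; the stem-loop-binding protein SLBP takes part in their processing, translation and decay. The libraries here were 3′ libraries primed on poly(A), so the counts follow the captured molecules and need not follow the whole pool of histone message. This limit applies in all arms, and whether the captured share was equal between classes, stages and doses was not tested.

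The stem-loop itself is shown first, because it is the feature that sets these messages apart and bears on how they can be captured. A search for the letters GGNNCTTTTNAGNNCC in the 150 bases after the stop codon found them in 66 of the 69 members whose gene could be matched in GENCODE v44 (95.7%), and in 70 of 19924 protein-coding genes in all (0.351%). The loop lay a median of 36 bases after the stop codon, with a range of 23 to 63. In the lines below, from GRCh38 and written 5′ to 3′, capitals mark the stem and loop of 6 abundant members, with at least 1 of every histone type.
HIST1H1A (chr6:26017032-26017057, minus strand): ccaacGGCTCTTTTAAGAGCCaccta
HIST1H1D (chr6:26234212-26234237, minus strand): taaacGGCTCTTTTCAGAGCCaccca
HIST2H2AC (chr1:149887386-149887411, plus strand): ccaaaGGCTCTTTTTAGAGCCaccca
HIST1H2BH (chr6:26252050-26252075, plus strand): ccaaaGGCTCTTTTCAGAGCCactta
HIST1H3B (chr6:26031592-26031617, minus strand): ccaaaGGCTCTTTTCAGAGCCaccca
HIST1H4C (chr6:26104312-26104337, plus strand): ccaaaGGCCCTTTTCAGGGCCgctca
The stem divided by histone type. The 14 H4 members with the motif carried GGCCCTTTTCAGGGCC (10 members) or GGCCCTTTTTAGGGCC (4 members). No H4 member had the commonest form, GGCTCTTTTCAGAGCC, which stood in 39 members (4 of H1, 11 of H2A, 12 of H2B and 12 of H3). A further 10 members of the other types had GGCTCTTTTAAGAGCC, and HIST1H2AG, HIST2H2AC and HIST1H2AK each had a form of their own.

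The remaining 3 matched members each differed from the searched letters by the substitution T8C, counted from 1 at the 5′ end of the motif, so that 10 of its 11 fixed letters matched. They are printed because they are the only matched members without the full motif.
HIST1H2BI (chr6:26273387-26273412, plus strand): ccaaaGGCTCTTCTAAGAGCCaccca
HIST1H3E (chr6:26225591-26225616, plus strand): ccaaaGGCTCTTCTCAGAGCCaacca
HIST1H4L (chr6:27873148-27873173, minus strand): tcaaaGGCCCTTCTCAGGGCCaccca
They held 234 UMIs (unique molecular identifiers, each standing for 1 captured molecule) for HIST1H2BI, 615 for HIST1H3E and 64 for HIST1H4L over all kept cells, beside a median of 674.5 UMIs over the 66 members with the motif. In the canonical transcript models, HIST2H2BE was the 1 member with the motif whose transcript ran more than 100 bases past the stem-loop, by 1729 bases, and it held 280 UMIs. The annotated gene, which takes in every transcript model, ran more than 100 bases past the stem-loop for 17 of the 66 members, HIST1H2AC, HIST1H2BC and HIST1H2BD among them. These 17 had a median of 575 UMIs, with 2 to 3132 each, and the other 49 a median of 728.

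Runs of A inside the coding sequence were described next, since the libraries were primed on poly(A). The densest 12 coding bases held a median of 9 A in the H1 members (8 to 10), 8 in H2A, 6.5 in H2B, 6 in H3 and 6 in H4, against 8 over all coding sequences. Across the 69 members this number had a Spearman correlation of 0.41 with total UMIs, given as a description across genes that share libraries and sequence. A longer coding sequence has more windows of 12 bases in which a high number can arise. Coding length was 621 to 678 bases in H1 and 294 to 309 in H4, with a median of 1272 over all coding sequences. The part of length was not tested. The 24 most A-rich coding bases of 3 leading H1 genes, whose proteins have lysine-rich tails, are shown beside those of HIST1H4C, with runs of 4 or more A in capitals.
HIST1H1A (chr6:26017213-26017236, minus strand): ccaagaatccAAAAAAAcccAAAA
HIST1H1D (chr6:26234866-26234889, minus strand): agAAAAAAcacctgtgaagAAAAA
HIST1H1E (chr6:26156891-26156914, plus strand): cAAAAAAgcgAAAAgcccgAAAAA
HIST1H4C (chr6:26104020-26104043, plus strand): gataacatccagggcattacAAAA
HIST1H4C, the member with the most UMIs, had 7 A in its densest 12 coding bases and so went against that order. Whether priming took place at such runs was not tested.

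After hashtag assignment and the study's cell filters, 12647 cells remained, 3773 in run 1 and 8874 in run 2. Run 1 held 1054 aggregate cells at 4 mM and 1201 at 0 mM, and 1092 blastoid cells at 4 mM and 426 at 0 mM. Run 2 held 4974 blastoid cells at 4 mM and 3900 at 0 mM. The filters kept between 44.8% and 89.0% of the singlets of an arm, and the median depth was 28225 to 30057.5 UMIs per cell in run 1 and 15468 to 15827 in run 2. The runs shared 28 barcodes, 8 of them among kept cells. Blastoid cells were split by marker UMIs into TE-like cells (more KRT8, KRT18, GATA3 and CLDN4 than POU5F1, DPPA5, DPPA4, L1TD1 and TDGF1) and Epi-like cells (the rest). The TE-like class was small, with 49 cells at 4 mM and 18 at 0 mM in run 1, and 170 at 4 mM and 181 at 0 mM in run 2. Of 7 trophectoderm markers that the split did not use (GATA2, KRT19, CDX2, HAND1, PTN, SLC7A2 and ABCG2), all 7 were higher in TE-like than in Epi-like cells in all 4 arms, with a summed level of 1463 to 3236 CPM against 45.01 to 55.99 CPM. CPM stands for counts per 1000000 UMIs of all genes in the summed cells. Summed epiblast markers stood at 94.8 to 270.3 CPM in TE-like cells, against 885 to 1019 CPM in Epi-like cells, and 7 of 8 were lower in TE-like cells in all 4 arms. Summed markers of primitive endoderm reached 8.05 to 107 CPM in TE-like cells, against 17.4 to 22.9 CPM in Epi-like cells, and those of amnion and of mesoderm stayed under 7 CPM in every class.

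Over all kept cells the 71 members held 280407 UMIs. H4 supplied 133155 of them (47.5%) and H1 90275 (32.2%), while H2A supplied 25209 (8.99%), H3 18445 (6.58%) and H2B 13323 (4.75%). A single gene dominated. HIST1H4C held 125932 UMIs, which was 44.9% of the member total and 94.6% of all H4. The 5 somatic H1 genes came next, with 31861 UMIs for HIST1H1A, 21691 for HIST1H1D, 15969 for HIST1H1B, 10881 for HIST1H1E and 9534 for HIST1H1C. Per kilobase of transcript the same 6 genes led in the same order, with HIST1H4C at 310943 UMIs per kb and HIST1H1A at 42144. The 6 most abundant members held 77.0% of the UMIs, the first 12 held 85.7% and the first 20 held 91.9%. At the other end, 5 members had no UMI (HIST2H3C, HIST2H2AA3, HIST2H3A, HIST1H4G and HIST1H4K) and 10 had fewer than 100, those 5 included.
Near-identical copies limit some of these counts. Each matched member was compared with the GENCODE v44 transcripts of all genes with histone-type names, members or not. The share of its 50-base stretches that also occurred in another such gene was 100% for HIST2H4A, HIST2H4B and HIST2H3A. It was 99.2% for HIST2H3C, 92.6% for HIST1H4K and 92.1% for HIST1H4J. Members with such high shares are uncertain because reads that fit more than 1 gene are not counted. The share was 0% for HIST1H4C and the 5 leading H1 genes, and 23.4% for HIST2H2AC.

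**Figure D1:**
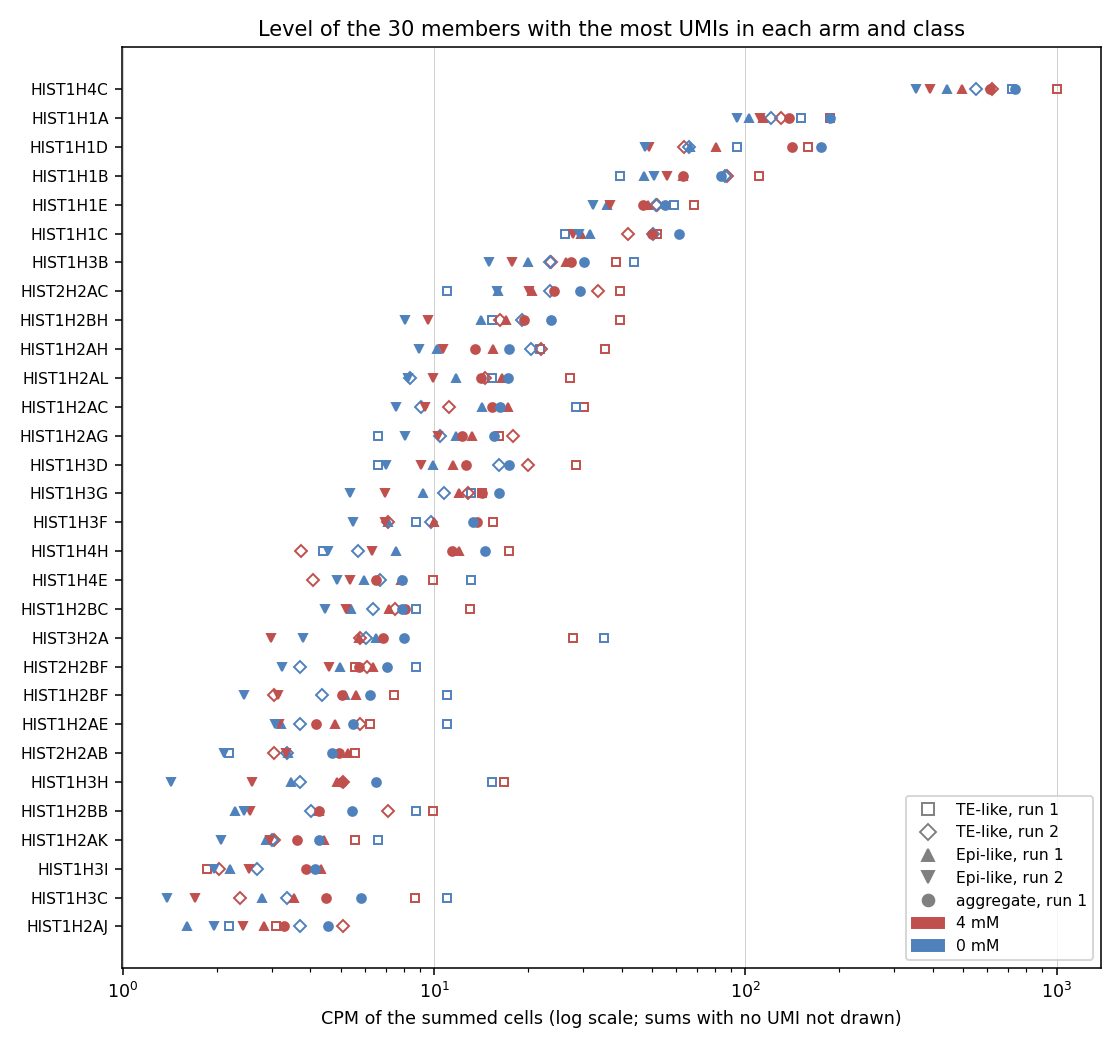
Level of the 30 members with the most UMIs, in CPM of the summed cells on a log axis, for each class and run (symbols) at 4 mM and 0 mM (colours). HIST1H4C lies at 354 CPM or more in every sum, above all other members.

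The histone types were then compared between arms, classes and stages. In TE-like cells, H1 stood at 583 CPM at 4 mM and 370.1 CPM at 0 mM in run 1, and at 377 and 375 CPM in run 2. In Epi-like cells, H1 stood at 337 CPM at 4 mM and 285 CPM at 0 mM in run 1, and at 281 and 255 CPM in run 2. Aggregates had 441 CPM of H1 at 4 mM and 564 CPM at 0 mM. For the linker histones the order of doses thus differed between the stages: aggregates were lower at 4 mM and Epi-like cells higher in both runs.

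The core types followed the same layout. H2A had 214 and 135 CPM in TE-like cells at 4 mM (run 1 and run 2), against 153 and 99.9 CPM at 0 mM. The Epi-like values for H2A were 118 and 82.9 CPM at 4 mM, against 90.4 and 66.6 CPM at 0 mM, and in aggregates they were 111 CPM at 4 mM and 136 CPM at 0 mM. TE-like cells exceeded the Epi-like cells of their own arm in every case. H2B, the scarcest type, had 119 and 59.3 CPM in TE-like cells at 4 mM, against 98.6 and 56.3 CPM at 0 mM. In Epi-like cells it had 66.3 and 40.02 CPM at 4 mM, against 51.95 and 33.4 CPM at 0 mM, and in aggregates 63.6 CPM at 4 mM and 74.7 CPM at 0 mM. Run 2 was lower than run 1 in each of these pairs, so doses and classes were compared within runs.
For H3, TE-like cells had 137 and 81.6 CPM at 4 mM, against 116 and 79.5 CPM at 0 mM. Epi-like cells had 86.4 and 56.3 CPM at 4 mM, against 64.2 and 44.5 CPM at 0 mM, and aggregates had 94.1 CPM at 4 mM and 108 CPM at 0 mM. H4, which is nearly all HIST1H4C here, had 1047 and 642 CPM in TE-like cells at 4 mM, against 753 and 577 CPM at 0 mM. Its Epi-like values were 533 and 414 CPM at 4 mM, against 470.4 and 371 CPM at 0 mM, and aggregates had 647 CPM at 4 mM and 778 CPM at 0 mM. Every type was thus lower at 4 mM in aggregates and higher at 4 mM in the Epi-like cells of both runs.

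**Figure D2:**
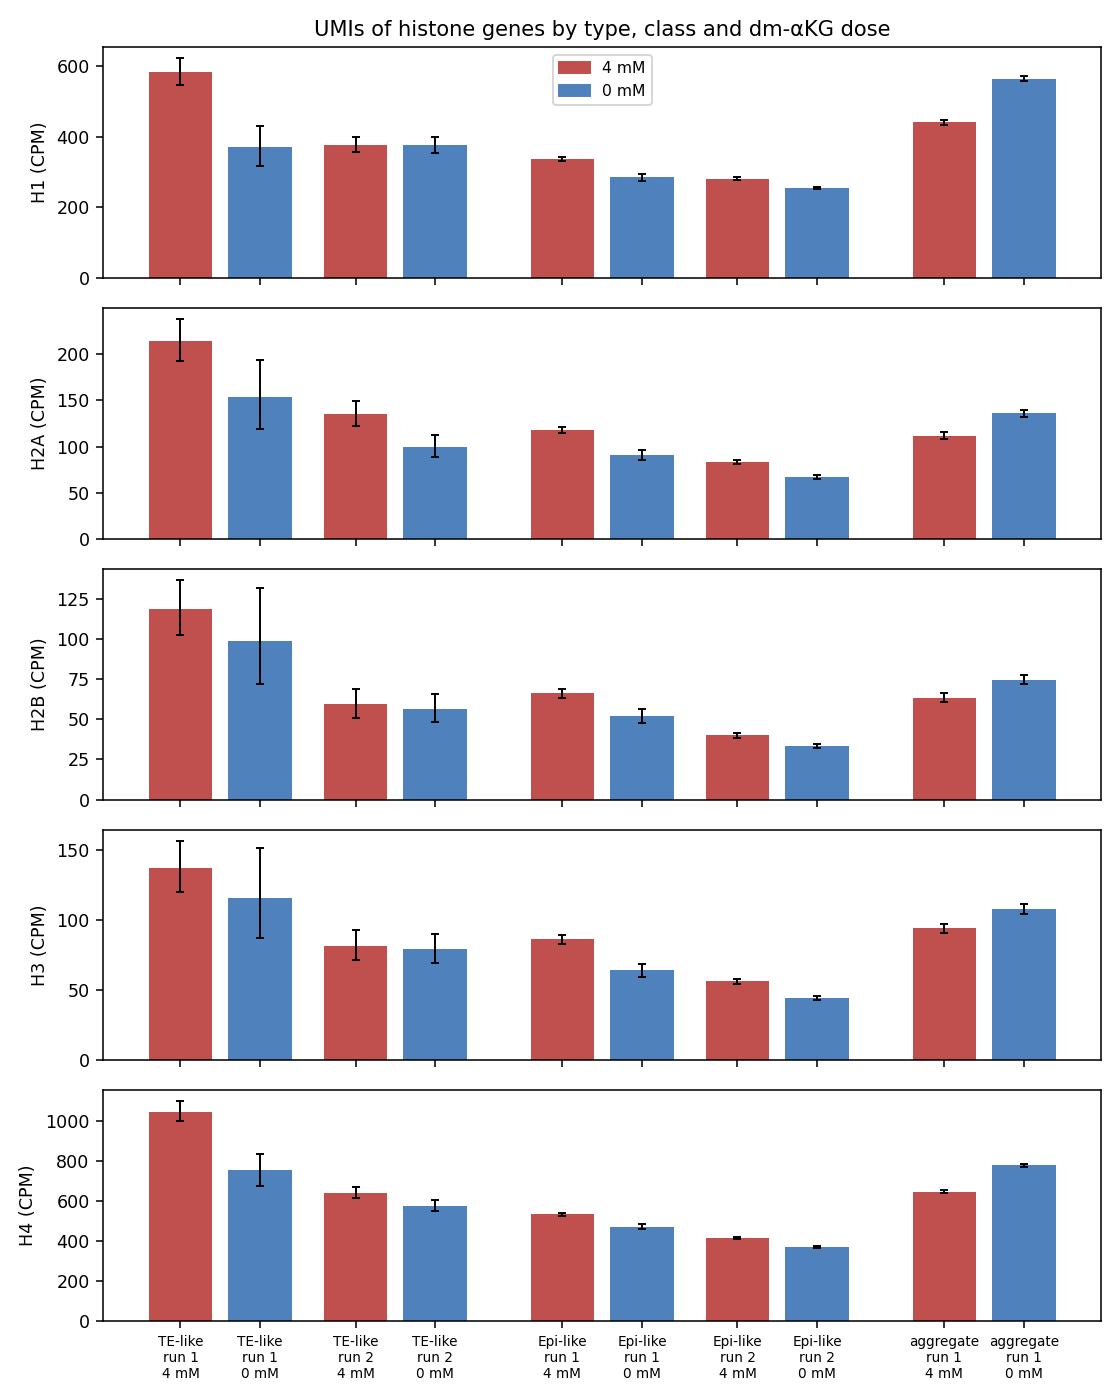
CPM of each histone type in TE-like cells, Epi-like cells and aggregates, by run and dm-αKG dose. Error bars are exact 95% Poisson intervals of the summed UMIs and cover counting error only; all 5 types are lower at 4 mM than at 0 mM in aggregates and higher in Epi-like cells of both runs.

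In aggregates the histone messages were lower with the compound. All members together had 1357 CPM at 4 mM and 1661 CPM at 0 mM, a ratio of 0.817 (95% interval 0.807 to 0.827). By type the ratio was 0.782 (95% interval 0.765 to 0.799) for H1, 0.8205 (95% interval 0.785 to 0.857) for H2A and 0.851 (95% interval 0.802 to 0.902) for H2B. It was 0.872 (95% interval 0.831 to 0.916) for H3 and 0.831 (95% interval 0.816 to 0.847) for H4. With 1 arm per dose there is no replicate and no test, and the intervals (exact, conditional on the summed counts) cover counting error only.
Of the 55 members with at least 100 UMIs over the 2 aggregate arms together, 46 had a ratio below 1, 32 (58.2%) were lower by more than 1.2-fold, and 1 was higher by more than 1.2-fold (HIST1H4A, named after its value was seen, whose interval of 0.857 to 1.85 included 1). Their median ratio was 0.820. Over all 12195 genes with that many UMIs, the median was 1.00, with 14.5% lower and 15.9% higher by that fold.

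The leading members gave these values. HIST1H1A had 138 CPM at 4 mM and 187 CPM at 0 mM, a ratio of 0.737 (95% interval 0.709 to 0.766). HIST1H1B had 62.98 CPM at 4 mM and 83.6 CPM at 0 mM, a ratio of 0.753 (95% interval 0.711 to 0.798). HIST1H1D had 142 CPM at 4 mM and 175 CPM at 0 mM, a ratio of 0.809 (95% interval 0.779 to 0.841). All 3 intervals lay below 1. HIST1H1E had 46.9 CPM at 4 mM and 55.1 CPM at 0 mM and HIST1H1C had 50.2 CPM at 4 mM and 61.2 CPM at 0 mM, with ratios of 0.85003 and 0.8203. For H4, HIST1H4C had 609.9 CPM at 4 mM and 735 CPM at 0 mM, a ratio of 0.8299 (95% interval 0.815 to 0.846). Among the other core genes, HIST2H2AC had 24.3 CPM at 4 mM and 29.3 CPM at 0 mM and HIST1H2BH had 19.4 CPM at 4 mM and 23.6 CPM at 0 mM, both lower with the compound. HIST1H3B had 27.5 CPM at 4 mM and 30.3 CPM at 0 mM, a smaller difference, and HIST1H2AC, with 15.3 CPM at 4 mM and 16.3 CPM at 0 mM, had an interval that included 1 (0.829 to 1.06). HIST1H2AH had 13.5 CPM at 4 mM and 17.4 CPM at 0 mM, and HIST1H2AL had 14.1 CPM at 4 mM and 17.2 CPM at 0 mM. These 12 genes, the most abundant members, were all lower at 4 mM.
The cell cycle moved with the dose in these arms. Cells called in S phase made up 19.7% of aggregate cells at 4 mM (208 of 1054) and 24.7% at 0 mM (297 of 1201), and cells called in G1 made up 47.7% at 4 mM and 37.5% at 0 mM. With the 4 mM cells weighted to the phase shares of the 0 mM arm, taken as shares of UMIs and not of cells, the ratio for all members was 0.904. Unweighted it was 0.817. Within phases, the 4 mM arm had 1884 CPM and the 0 mM arm 2473 CPM in S-called cells, 558 and 610 CPM in G1-called cells, and 1989 and 1960 CPM in G2/M-called cells. The share of singlets kept was 55.7% at 4 mM and 71.7% at 0 mM, and its part in the difference was not tested.

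In Epi-like cells of the blastoids, taken at 120 h, the histone messages were higher in the arms that had received the compound. All members together had 1140.5 CPM at 4 mM and 962 CPM at 0 mM in run 1, a ratio of 1.18 (95% interval 1.16 to 1.21). In run 2 they had 875 CPM at 4 mM and 769.9 CPM at 0 mM, a ratio of 1.14 (95% interval 1.12 to 1.15). By type, in run 1 and run 2, the ratios were 1.18 and 1.10 for H1, 1.30 and 1.24 for H2A, 1.28 and 1.1999 for H2B, 1.35 and 1.27 for H3, and 1.13 and 1.12 for H4. All 10 intervals lay above 1 for counting error. The share of blastoid singlets kept by the cell filters was also higher at 4 mM, at 73.1% and 89.0% (run 1 and run 2), against 44.8% and 81.05% at 0 mM, and its part in the difference was not tested.
The test across genes was edgeR's quasi-likelihood test on UMIs summed per arm, with run as a block and Benjamini-Hochberg adjustment over all 17014 genes tested (n = 2 arms per dose). It was fitted for 63 members, and 8 fell under the low-count filter. Of these, 24 were higher at 4 mM past an adjusted p of 0.05, and 0 were lower, against a background of 5.2% of all genes called higher and 3.49% called lower (8.69% in either direction). The median log2 fold change was 0.31 over the members and -0.01 over all genes, and 59 of 63 members were above 0. In 50 of 63 members (79.4%) both runs were higher at 4 mM, against 32.5% of all genes.
The calls rest on small variance estimates, with 1 residual degree of freedom that edgeR combined with 35.8 prior degrees of freedom shared over genes. DESeq2 with the same design called 0 members higher and 0 lower (14 at an unadjusted p below 0.05), edgeR without run as a block also called 0 (16 at an unadjusted p below 0.05), and edgeR on cells thinned to 5000 UMIs called 4 of 55. All 24 members kept a positive log2 fold change in DESeq2 and without the block. With thinned cells 22 did so, and the rest of the 24 fell under the low-count filter and were not tested.

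By type, 3 of 6 H1 members, 9 of 16 H2A, 1 of 17 H2B, 8 of 12 H3 and 3 of 12 H4 were higher past the threshold. The median log2 fold changes were 0.17, 0.35, 0.29, 0.39 and 0.34 in that order, all 5 above 0. Differences between types were not tested.
Among the linker histones, HIST1H1A had 114 and 111 CPM at 4 mM (run 1 and run 2), against 103 and 93.9 CPM at 0 mM. HIST1H1B had 63.2 and 55.9 CPM at 4 mM (run 1 and run 2), against 47.2 and 50.7 CPM at 0 mM. HIST1H1E had 48.6 and 36.8 CPM at 4 mM (run 1 and run 2), against 35.8 and 32.4 CPM at 0 mM. These 3 genes were higher at 4 mM in each run, as were 32.5% of all genes. The log2 fold changes were 0.20 ± 0.06 (SE), adjusted p = 0.0476 for HIST1H1A, 0.26 ± 0.07 (SE), adjusted p = 0.0127 for HIST1H1B and 0.29 ± 0.07 (SE), adjusted p = 0.00666 for HIST1H1E (edgeR). HIST1H1D had 80.2 and 49.1 CPM at 4 mM (run 1 and run 2), against 66.3 and 47.6 CPM at 0 mM, and did not pass (log2 0.14 ± 0.07 (SE), adjusted p = 0.182 by edgeR). HIST1H1C had 29.7 and 27.9 CPM at 4 mM (run 1 and run 2), against 31.6 and 29.2 CPM at 0 mM, with a log2 fold change of -0.07 ± 0.07 (SE), adjusted p = 0.601 (edgeR). The sixth H1 gene, HIST1H1T, is known as the testis form and was barely detected, with 41 and 58 UMIs at 4 mM, against 17 and 59 UMIs at 0 mM.

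Of the H2A genes, HIST2H2AC had 20.7 and 20.1 CPM at 4 mM (run 1 and run 2), against 16.1 and 15.9 CPM at 0 mM, a log2 fold change of 0.35 ± 0.08 (SE), adjusted p = 0.00418 (edgeR). HIST1H2AH had 15.4 and 10.7 CPM at 4 mM (run 1 and run 2), against 10.2 and 8.903 CPM at 0 mM, a log2 fold change of 0.38 ± 0.10 (SE), adjusted p = 0.0103 (edgeR). Both genes were higher at 4 mM in each run. HIST1H2AL had 16.5 and 9.89 CPM at 4 mM (run 1 and run 2), against 11.8 and 8.24 CPM at 0 mM, and HIST1H2AC had 17.3 and 9.303 CPM at 4 mM (run 1 and run 2), against 14.2 and 7.54 CPM at 0 mM. In these 2 genes run 1 at 0 mM exceeded run 2 at 4 mM, so the sums overlapped across runs while the order within each run was the same. HIST1H2AL and HIST1H2AC both passed, with log2 fold changes of 0.35 ± 0.10 (SE) and 0.30 ± 0.10 (SE).
A further 5 scarcer H2A genes also passed. HIST2H2AB had 5.28 and 3.32 CPM at 4 mM (run 1 and run 2), against 3.38 and 2.11 CPM at 0 mM. HIST1H2AK had 4.42 and 2.96 CPM at 4 mM (run 1 and run 2), against 2.88 and 2.06 CPM at 0 mM. HIST1H2AB had 3.99 and 2.51 CPM at 4 mM (run 1 and run 2), against 2.37 and 1.49 CPM at 0 mM. All 3 encode canonical H2A proteins and were higher at 4 mM in each run, with log2 fold changes of 0.66 ± 0.15 (SE), 0.56 ± 0.16 (SE) and 0.75 ± 0.17 (SE). HIST1H2AD had 2.41 and 1.52 CPM at 4 mM (run 1 and run 2), against 1.78 and 0.812 CPM at 0 mM, and HIST1H2AI had 1.67 and 0.941 CPM at 4 mM (run 1 and run 2), against 0.508 and 0.569 CPM at 0 mM. At these levels the sums held 54 and 77 UMIs of HIST1H2AI at 4 mM, against 6 and 35 UMIs at 0 mM. The log2 fold changes were 0.75 ± 0.22 (SE) for HIST1H2AD and 0.97 ± 0.28 (SE) for HIST1H2AI. In the other direction, HIST3H2A, the H2A gene of the small chromosome 1 cluster, had 5.75 and 2.98 CPM at 4 mM (run 1 and run 2), against 6.52 and 3.79 CPM at 0 mM, and its log2 fold change of -0.28 ± 0.14 (SE), adjusted p = 0.212 (edgeR) did not pass.

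H2B was the type with the fewest calls. HIST2H2BF had 6.33 and 4.57 CPM at 4 mM (run 1 and run 2), against 4.99 and 3.25 CPM at 0 mM, and was the H2B gene that passed, at a log2 fold change of 0.45 ± 0.14 (SE), adjusted p = 0.0311 (edgeR). The most abundant H2B gene, HIST1H2BH, had 17.1 and 9.56 CPM at 4 mM (run 1 and run 2), against 14.1 and 8.03 CPM at 0 mM. It was higher at 4 mM in each run and did not pass (log2 0.26 ± 0.09 (SE), adjusted p = 0.0801 by edgeR). All 17 H2B genes tested had a positive log2 fold change, from 0.07 to 0.72.

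For H3, HIST1H3B had 26.4 and 17.7 CPM at 4 mM (run 1 and run 2), against 20.1 and 15.01 CPM at 0 mM, a log2 fold change of 0.30 ± 0.08 (SE), adjusted p = 0.0129 (edgeR). HIST1H3D had 11.5 and 9.08 CPM at 4 mM (run 1 and run 2), against 9.8996 and 7.002 CPM at 0 mM, and HIST1H3G had 11.99 and 6.93 CPM at 4 mM (run 1 and run 2), against 9.22 and 5.35 CPM at 0 mM. HIST1H3F had 9.98 and 6.97 CPM at 4 mM (run 1 and run 2), against 7.11 and 5.48 CPM at 0 mM. These 4 abundant H3 genes were each higher at 4 mM in both runs, and the last 3 had log2 fold changes of 0.32 ± 0.10 (SE), 0.38 ± 0.11 (SE) and 0.40 ± 0.11 (SE). HIST1H3H had 4.88 and 2.59 CPM at 4 mM (run 1 and run 2), against 3.47 and 1.43 CPM at 0 mM. HIST1H3I had 4.33 and 2.54 CPM at 4 mM (run 1 and run 2), against 2.1999 and 1.97 CPM at 0 mM, and HIST1H3A had 3.46 and 2.46 CPM at 4 mM (run 1 and run 2), against 1.95 and 1.82 CPM at 0 mM. For these scarcer H3 genes, which passed, the log2 fold changes were larger, at 0.72 ± 0.17 (SE), 0.55 ± 0.17 (SE) and 0.55 ± 0.17 (SE). A scarce gene needs a larger fold change to pass. The 4 H3 genes tested that did not pass were also scarce, so this order can follow from the threshold. HIST1H3J, with 4.08 and 1.76 CPM at 4 mM (run 1 and run 2), against 2.03 and 0.975 CPM at 0 mM, had the highest log2 fold change of the H3 genes, 0.91 ± 0.20 (SE), adjusted p = 0.00196 (edgeR).

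For H4, the dominant HIST1H4C had 498 and 392 CPM at 4 mM (run 1 and run 2), against 445 and 354 CPM at 0 mM. Its log2 fold change was small and did not pass (0.15 ± 0.06 (SE), adjusted p = 0.144 by edgeR). HIST1H4H had 12.05 and 6.295 CPM at 4 mM (run 1 and run 2), against 7.53 and 4.57 CPM at 0 mM, and HIST1H4D had 2.29 and 2.77 CPM at 4 mM (run 1 and run 2), against 1.35 and 1.71 CPM at 0 mM. Both passed, with log2 fold changes of 0.54 ± 0.11 (SE) and 0.72 ± 0.18 (SE). HIST1H4B, with 55 and 51 UMIs at 4 mM, against 4 and 20 UMIs at 0 mM, had the highest log2 fold change of all members tested, 1.33 ± 0.33 (SE), adjusted p = 0.00801 (edgeR). Most H4 genes are known to encode an identical protein.
Over the 24 members past the threshold the median log2 fold change was 0.50, and 23 of them had at least 100 UMIs over the 2 aggregate arms together. Of those 23, 21 were lower at 4 mM in aggregates and 2 were higher (HIST1H3F and HIST2H2AB, both with an interval that included 1).
Cells called in S phase made up 26.9% and 23.9% of Epi-like cells at 4 mM (run 1 and run 2), against 22.3% and 21.9% at 0 mM. At the phase shares of UMIs of the 0 mM arm, the ratio for all members was 1.16 in run 1 and 1.12 in run 2. Unweighted it was 1.18 and 1.14. Within phases, G1-called cells had 654 and 553 CPM at 4 mM (run 1 and run 2), against 595 and 444 CPM at 0 mM, and S-called cells had 1367 and 972 CPM at 4 mM, against 1012 and 907 CPM at 0 mM. G2/M-called cells had 1514 and 1087 CPM at 4 mM, against 1374 and 999 CPM at 0 mM. All 3 phases were higher at 4 mM in both runs.

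**Figure D3:**
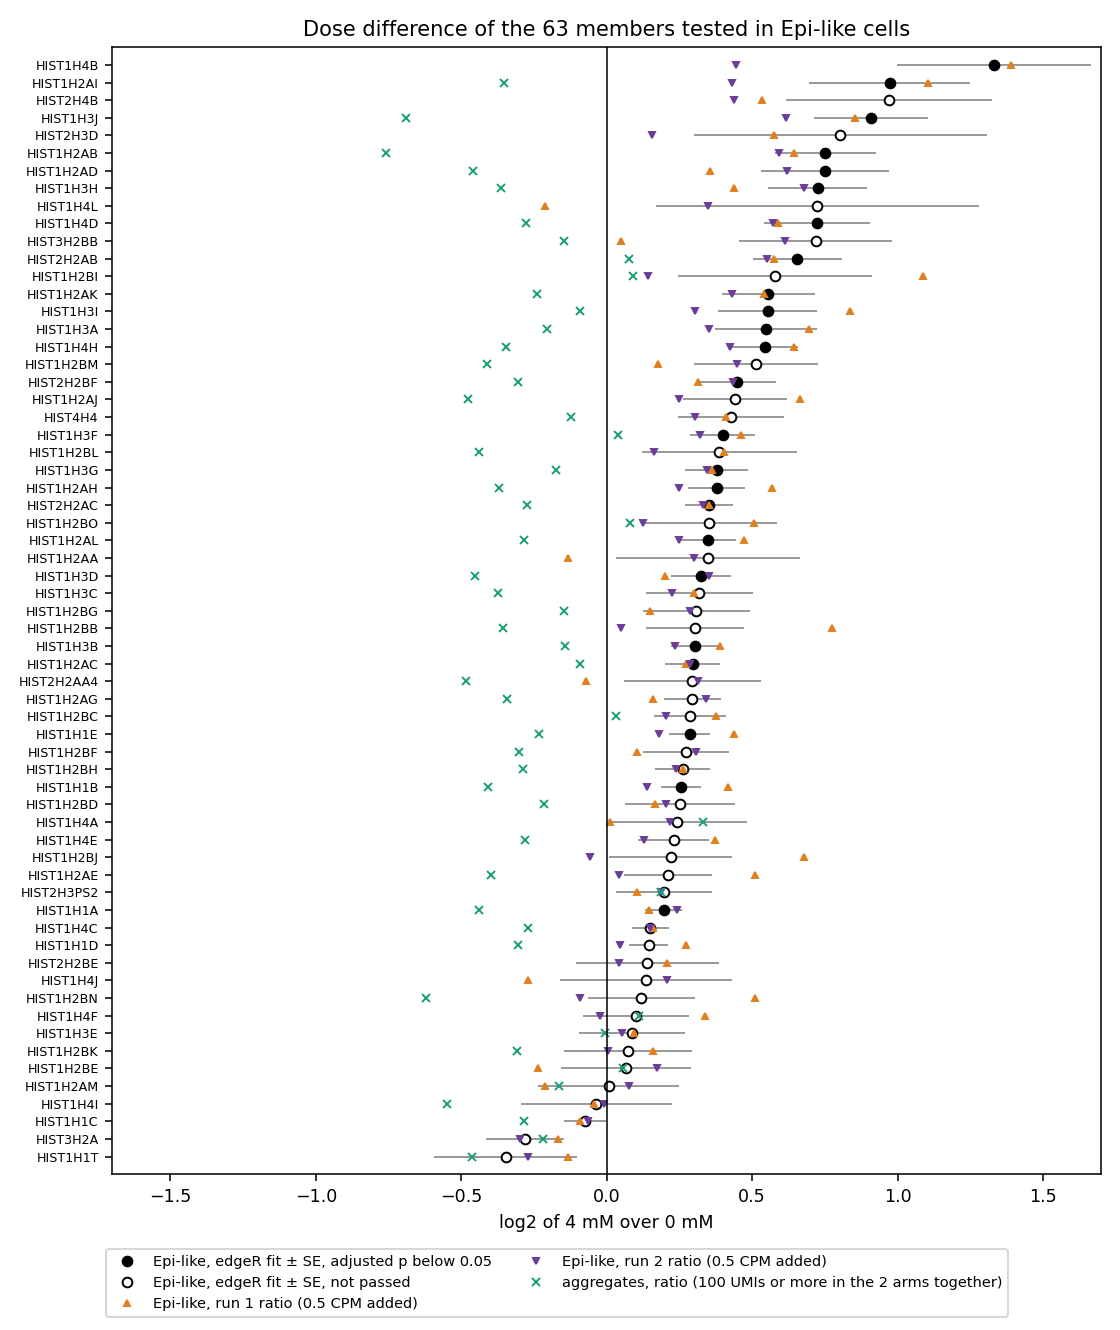
Log2 of 4 mM over 0 mM for the 63 members tested in Epi-like cells: edgeR fold change with its standard error (circles, filled where the adjusted p was below 0.05), the ratio within each run with 0.5 CPM added (triangles), and the ratio in aggregates for members with at least 100 UMIs in the 2 arms together (crosses). Filled circles all lie right of 0 and most crosses lie left of it.

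The dose comparison in TE-like cells had far fewer cells. All members together had 2101 CPM at 4 mM and 1491 CPM at 0 mM in run 1, a ratio of 1.41 (95% interval 1.297 to 1.53), and 1295 CPM at 4 mM and 1188 CPM at 0 mM in run 2, a ratio of 1.09 (95% interval 1.04 to 1.14). The run 1 ratio rests on 49 cells at 4 mM and 18 cells at 0 mM, with a median mitochondrial share of 3.72% at 4 mM and 6.104% at 0 mM. The summed primitive endoderm markers of that pair stood at 34.1 CPM at 4 mM and 107 CPM at 0 mM. The part of both in the ratio was not tested. By edgeR, 31 members were tested and 0 passed in either direction (4 at an unadjusted p below 0.05), with 0 by DESeq2 too (0 at an unadjusted p below 0.05). The background of all genes called was 0.648% higher and 0.791% lower (1.44% in either direction). The 4 at an unadjusted p below 0.05 were HIST2H2AC, HIST1H2AG, HIST1H2AL and HIST1H4C, named after their values were seen, and all 4 were higher at 4 mM. HIST1H4C had 1001 and 622 CPM at 4 mM (run 1 and run 2), against 721 and 552 CPM at 0 mM (log2 0.29 ± 0.12 (SE), adjusted p = 0.417). HIST2H2AC had 39.6 and 33.5 CPM at 4 mM, against 10.95 and 23.5 CPM at 0 mM (log2 0.76 ± 0.27 (SE), adjusted p = 0.241). The median over the 31 members was 0.21 on the log2 scale, 23 were above 0, and 16 (51.6%) were higher in both runs, against 31.4% of all genes. The difference between the dose effects of the 2 classes was tested as an interaction in 58 members: 0 passed by edgeR (2 at an unadjusted p below 0.05) and 0 by DESeq2 (1 at an unadjusted p below 0.05), against 0.387% of all genes called higher and 0.38% lower (0.767% in either direction). A difference between the classes in their response was therefore not detectable at this depth.

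TE-like cells held more captured histone message than Epi-like cells of the same arm. All members together had 2101 and 1491 CPM in TE-like cells of run 1 (4 and 0 mM), against 1140.5 and 962 CPM in Epi-like cells. In run 2 they had 1295 and 1188 CPM in TE-like cells, against 875 and 769.9 CPM in Epi-like cells. The TE-like sum was the higher in all 4 arms. No member and no gene of the cell cycle lists took part in the class split.
Summed UMIs of the 8 class-by-arm sums were compared by edgeR with arm as a block (n = 4 arms), over 13165 genes, of which 22.6% were called higher and 25.7% lower in TE-like cells (48.2% in either direction). Of 58 members tested, 34 were higher in TE-like cells past an adjusted p of 0.05 and 0 were lower, 53 had a positive log2 fold change, and the median was 0.82, against -0.05 for all genes. In 26 of 58 members (44.8%) all 4 arms were higher in TE-like cells, against 15.9% of all genes. DESeq2 called 26 members higher and edgeR on thinned cells 14 of 25, while leaving out 1 arm at a time left 26 to 30. The edgeR fold changes include a TMM scaling. It added 0.19 on the log2 scale on average to TE-like cells (0.09 to 0.24 over the 4 arms). The lowest fold change of the 34 called members was 0.65, for HIST1H2AG. Members were called partly by the size of their fold changes, so this does not show which calls would pass without the scaling. That was not tested.

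All 6 H1 members passed, although HIST1H1T was lower in TE-like cells of both 0 mM arms and rests on few molecules. In the order run 1 at 4 and 0 mM and run 2 at 4 and 0 mM, HIST1H1A had 186, 151, 130.1 and 121 CPM in TE-like cells, against 114, 103, 111 and 93.9 CPM in Epi-like cells. HIST1H1D had 159, 94.2, 63.7 and 66.1 CPM in TE-like cells, against 80.2, 66.3, 49.1 and 47.6 CPM in Epi-like cells, in the same order. HIST1H1B had 111, 39.4, 87.4 and 85.9 CPM in TE-like cells, against 63.2, 47.2, 55.9 and 50.7 CPM in Epi-like cells. HIST1H1A was higher in TE-like cells in all 4 arms, while HIST1H1B at 0 mM in run 1 was lower. Their log2 fold changes were 0.66 ± 0.10 (SE), adjusted p = 9.29e-06, for HIST1H1A, 0.81 ± 0.11 (SE), adjusted p = 3.68e-06, for HIST1H1D, and 0.85 ± 0.12 (SE), adjusted p = 7.26e-06, for HIST1H1B (edgeR). HIST1H1E and HIST1H1C had log2 fold changes of 0.79 ± 0.11 (SE) and 0.85 ± 0.14 (SE), and HIST1H1C was also lower in TE-like cells of run 1 at 0 mM, as was HIST2H2AC.
Among core members, 9 of 15 H2A, 10 of 17 H2B, 6 of 11 H3 and 3 of 9 H4 passed. HIST1H4C had 1001, 721, 622 and 552 CPM in TE-like cells, against 498, 445, 392 and 354 CPM in Epi-like cells, a log2 fold change of 0.96 ± 0.08 (SE), adjusted p = 3.25e-09 (edgeR). HIST1H2AH had 35.3, 21.9, 22.02 and 20.5 CPM in TE-like cells, against 15.4, 10.2, 10.7 and 8.903 CPM in Epi-like cells, a log2 fold change of 1.36 ± 0.15 (SE), adjusted p = 1.74e-07 (edgeR). TE-like cells were higher in all 4 arms for both genes. HIST1H2BH had 39.6, 15.3, 16.3 and 19.1 CPM in TE-like cells, against 17.1, 14.1, 9.56 and 8.03 CPM in Epi-like cells, with a log2 fold change of 1.22 ± 0.17 (SE). HIST1H3B had 38.4, 43.8, 23.7 and 23.5 CPM in TE-like cells, against 26.4, 20.1, 17.7 and 15.01 CPM in Epi-like cells, with a log2 fold change of 0.82 ± 0.14 (SE). These 2 genes were higher in TE-like cells in all 4 arms as well. The other core genes among the 12 most abundant had log2 fold changes of 0.88 ± 0.15 (SE) for HIST2H2AC, 0.76 ± 0.18 (SE) for HIST1H2AC and 0.68 ± 0.18 (SE) for HIST1H2AL.

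The 6 members with the largest log2 fold changes were mostly scarce genes. HIST1H2BL had 7.43, 2.19, 3.39 and 1.68 CPM in TE-like cells, against 1.73, 1.18, 0.697 and 0.569 CPM in Epi-like cells, a log2 fold change of 2.16 ± 0.42 (SE), adjusted p = 0.000233 (edgeR). HIST3H2A had 27.9, 35.04, 5.76 and 6.04 CPM in TE-like cells, against 5.75, 6.52, 2.98 and 3.79 CPM in Epi-like cells, a log2 fold change of 1.79 ± 0.27 (SE), adjusted p = 1.46e-05 (edgeR). HIST1H3H had 16.7, 15.3, 5.08 and 3.69 CPM in TE-like cells, against 4.88, 3.47, 2.59 and 1.43 CPM in Epi-like cells, a log2 fold change of 1.71 ± 0.27 (SE), adjusted p = 3.05e-05 (edgeR). HIST3H2A stood highest in run 1 TE-like cells, where the gap to Epi-like cells was wider than in run 2. HIST1H4I, HIST1H2BI and HIST1H1T followed, with log2 fold changes of 1.65 ± 0.46 (SE), 1.58 ± 0.58 (SE) and 1.56 ± 0.54 (SE). They rest on few molecules in TE-like cells: HIST1H4I had 6, 3, 5 and 5 UMIs, HIST1H2BI 4, 0, 7 and 2, and HIST1H1T 11, 0, 7 and 2. A count of 0 in the smallest of these sums allows up to 8.08 CPM (exact Poisson 95% bound).
By called phase, the ratio of TE-like to Epi-like cells for all members ran from 1.72 to 3.00 over the 4 arms in G1-called cells and from 1.54 to 2.07 in S-called cells. In G2/M-called cells it ran from 1.08 to 1.30. The phase groups of TE-like cells in run 1 at 0 mM held only 5 to 8 cells each. Differences between phases were not tested.

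**Figure D4:**
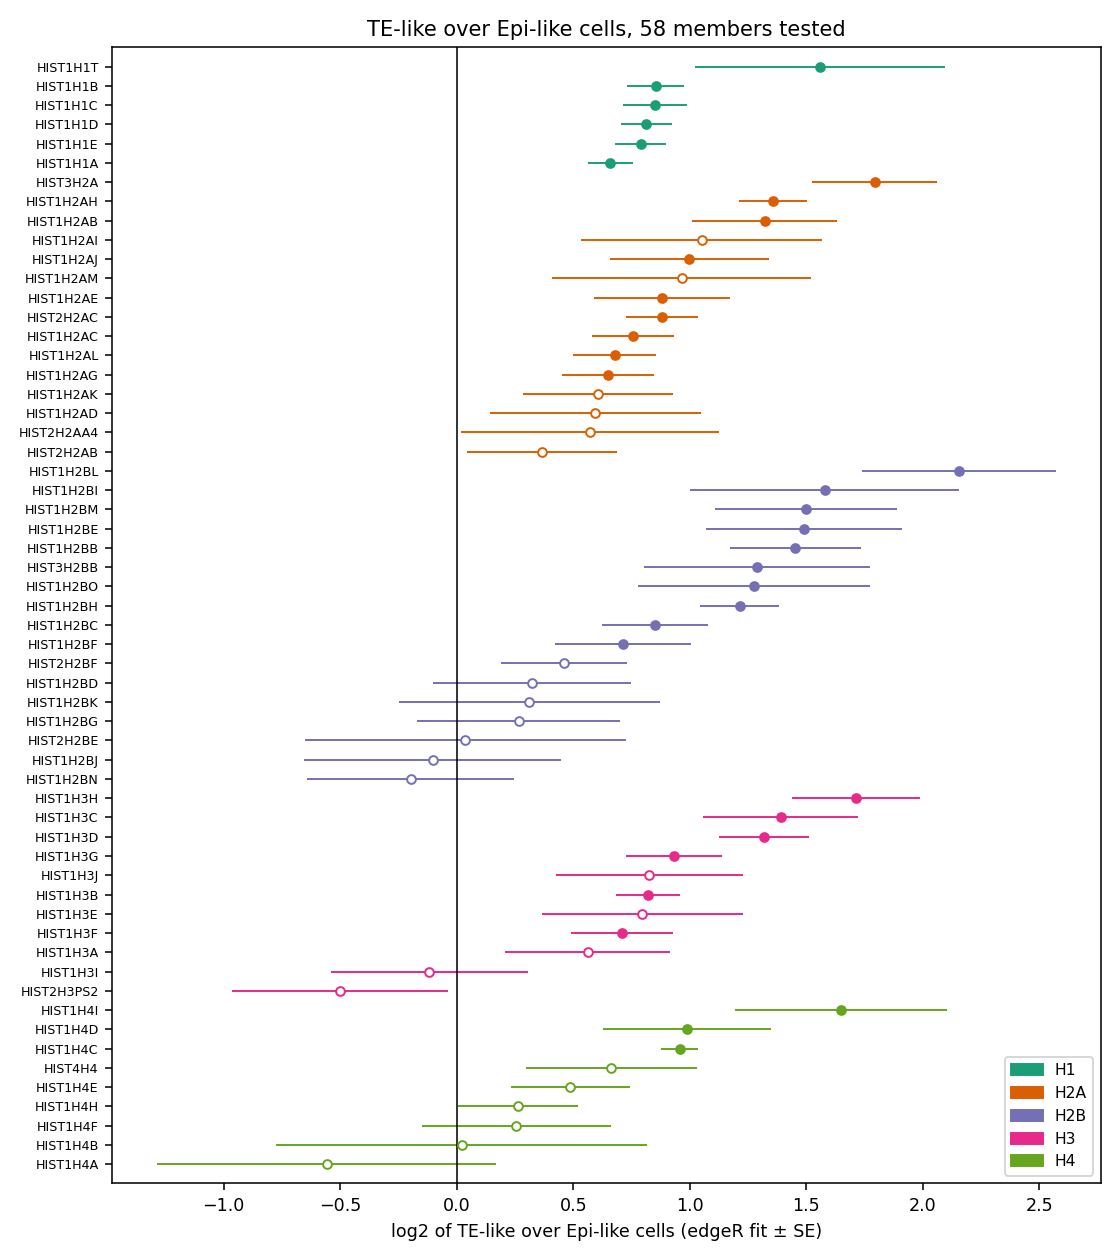
Log2 of TE-like over Epi-like cells by edgeR, with standard errors, for the 58 members tested, grouped by histone type. Filled circles mark an adjusted p below 0.05; all 6 H1 genes are filled, and all 34 filled circles lie right of 0.

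Epi-like cells at 120 h were set beside aggregates at 40 h in run 1, the run that held both, with 1 arm per stage and dose and no test. At 4 mM, all members had 1140.5 CPM in Epi-like cells and 1357 CPM in aggregates, a ratio of 0.8404 (95% interval 0.829 to 0.852). At 0 mM they had 962 CPM in Epi-like cells and 1661 CPM in aggregates, a ratio of 0.5796 (95% interval 0.568 to 0.591). The gap between stages was thus wider at 0 mM. For H1 the ratio of Epi-like cells to aggregates was 0.764 at 4 mM and 0.506 at 0 mM, and for H4 it was 0.824 at 4 mM and 0.604 at 0 mM. H2A and H2B had ratios of 1.06 (0.938 with thinned cells) and 1.04 at 4 mM, and of 0.666 and 0.695 at 0 mM. By member, 52 genes had at least 100 UMIs over the 2 sums together at 4 mM, with a median ratio of 1.01, of which 10 were higher and 12 lower by more than 1.2-fold, against 22.9% higher and 25.8% lower of all genes. At 0 mM, 42 of 47 members were lower by that fold, with a median ratio of 0.587, against 29.5% lower of all genes. Of the H1 genes, HIST1H1D had the lowest ratio at both doses, with 80.2 and 66.3 CPM in Epi-like cells (4 and 0 mM), against 142 and 175 CPM in aggregates. Within phase calls at 0 mM, Epi-like cells had 1012 CPM and aggregates 2473 CPM in S-called cells, 1374 and 1960 CPM in G2/M-called cells, and 595 and 610 CPM in G1-called cells. At 4 mM, Epi-like cells had 1367 CPM and aggregates 1884 CPM in S-called cells, 1514 and 1989 CPM in G2/M-called cells, and 654 and 558 CPM in G1-called cells. Epi-like cells were thus lower among S-called and G2/M-called cells at both doses. Among G1-called cells they were lower at 0 mM and higher at 4 mM. Phases were called for each stage separately, so the calls of the stages need not match. Stage, culture time and the change of medium cannot be told apart here.

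Along the cell cycle most members with enough UMIs were higher in S-called than in G1-called cells, with exceptions. Phases were called for each stage separately from S and G2/M gene lists that hold no member, so the levels by phase are a description. In Epi-like cells, the 55 members with at least 30 UMIs in G1-called cells had a median ratio of S-called to G1-called cells of 1.82, and 51 of the 55 were above 1. In aggregates the median was 4.04 over 36 members, and 34 of the 36 were above 1. Such ratios were not taken over all genes, so no background stands beside these counts. The G2/M to G1 medians were 2.16 in Epi-like cells and 3.41 in aggregates. HIST1H3G had the highest S to G1 ratio at both stages, 2.88 in Epi-like cells and 7.01 in aggregates. HIST1H1B reached 2.36 in Epi-like cells and 6.44 in aggregates, and HIST1H4C 1.82 in Epi-like cells and 3.46 in aggregates. The 5 leading H1 genes and HIST1H4C were thus all higher in S-called cells at both stages.
HIST3H2A and HIST2H3PS2 did not follow that order. HIST3H2A had 2.88 CPM in S-called and 5.63 CPM in G1-called Epi-like cells, a ratio of 0.511, and 7.21 and 7.36 CPM in aggregates. HIST2H3PS2, an H3 gene annotated as protein coding, had 2.24 CPM in S-called and 2.78 CPM in G1-called Epi-like cells. HIST1H2BD, at 0.944, and HIST1H4J, at 0.730, were the other members below 1 in Epi-like cells. All 4 were named after their values were seen.
Cells were also placed on an angle set by their S and G2/M scores, in 12 bins of 30 degrees, of which those with at least 20 cells were used. The angle is built so that high S scores lie near 0 degrees and high G2/M scores near 90 degrees. By that construction the S list was highest in the first bin (0 to 30 degrees). The G2/M list was highest in the fourth (90 to 120 degrees), in all 6 sets of cells. All members peaked between them, at 30 to 60 degrees, in 5 of the 6 sets; in Epi-like cells of run 1 at 0 mM, where that bin held under 20 cells, the highest bin used was 60 to 90 degrees. Peak levels in Epi-like cells were 2104 and 1775 CPM at 4 mM (run 1 and run 2), against 1811 and 1830 CPM at 0 mM, and in aggregates 3549.7 CPM at 4 mM and 3103 CPM at 0 mM. The peak was 5.50 to 8.62 times the lowest bin.

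**Figure D5:**
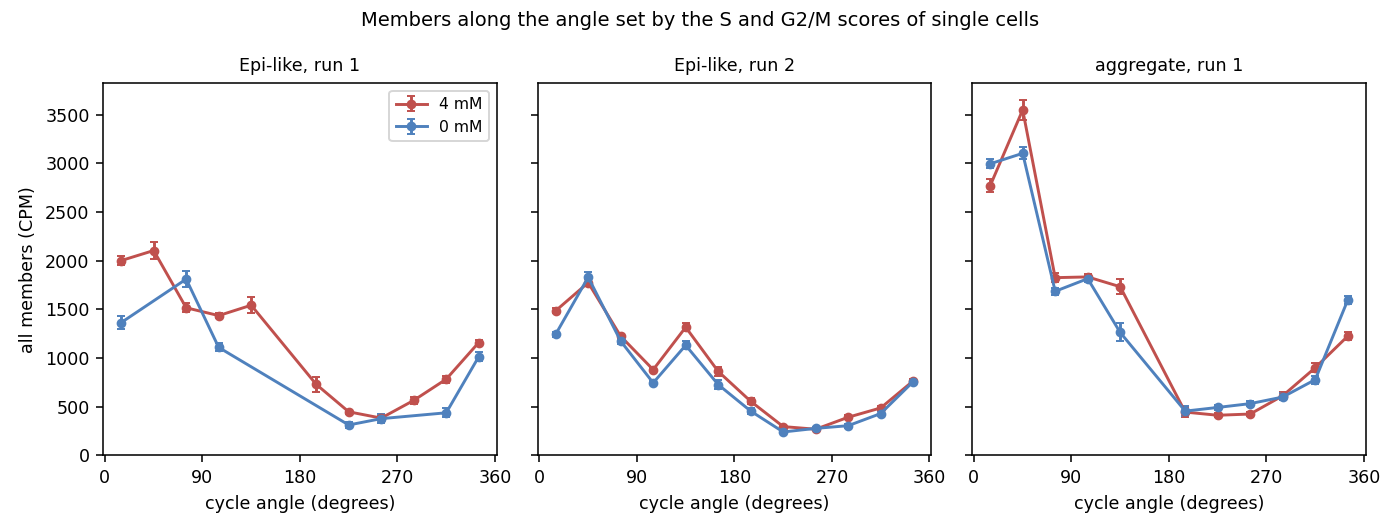
CPM of all members along the angle set by the S and G2/M scores of single cells, in bins of 30 degrees with at least 20 cells, for Epi-like cells of run 1 and run 2 and for aggregates, at 4 mM and 0 mM. Error bars are exact 95% Poisson intervals (counting error only); the level is highest near 30 to 60 degrees and lowest between 180 and 270 degrees.

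From cell to cell the messages were uneven. With every cell thinned to 5000 UMIs, the median cell held 3 member UMIs in aggregates at 4 mM and 4 at 0 mM, 3 in Epi-like cells of run 1 at both doses, and 2 in those of run 2. The variance was 5.04 to 7.90 times the mean in these 6 sets, against 1.24 to 1.48 times for H2AFZ, a replication-independent H2A variant of like abundance. The tenth of cells with the most member UMIs held 32.2% to 38.5% of them, against 20.8% to 22.96% for H2AFZ. HIST1H4C was seen in 72.2% of thinned aggregate cells at 4 mM (761 of 1054, exact binomial 95% interval from 69.4%) and 76.4% at 0 mM (918 of 1201, from 73.9%). In G1-called aggregate cells the shares were 59.8% at 4 mM and 64.9% at 0 mM. Thinned Epi-like cells had a HIST1H4C UMI in 70.2% and 63.6% of cells at 4 mM (run 1 and run 2), against 65.4% and 59.7% at 0 mM. No cell class here should lack histone message, so the level that free RNA alone would give could not be measured, and UMIs in G1-called cells are not read as expression in G1.

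Genes that make, process and carry histones were described from lists of 11 transcription factors and regulators, 18 factors of 3′ end formation and decay, 22 chaperones and import factors and 12 replication-independent variants. In the dose comparison of Epi-like cells, 3 of 11 regulators were higher and 0 lower by edgeR (n = 2 arms per dose): NPAT, the coactivator of histone loci, at a log2 fold change of 0.26 ± 0.07, POU2F1, the octamer-binding factor, at 0.25 ± 0.07, and YY1 at 0.21 ± 0.06 (± SE). Of the 18 factors of 3′ end formation, 2 were higher (SRRT at 0.36 ± 0.07 and the stem-loop exonuclease ERI1 at 0.31 ± 0.07) and 1 was lower (LSM10, a U7 snRNP protein, at -0.34 ± 0.07). SLBP itself had a log2 fold change of 0.09 ± 0.06 and did not pass. Of the 22 chaperones, 5 were higher and 0 lower, among them CHAF1A, the large subunit of the replication-coupled assembly factor CAF-1, at 0.21 ± 0.07, DNAJC9 at 0.23 ± 0.06 and UBN1 at 0.28 ± 0.07. Of 11 variants tested, H2AFY, the macroH2A gene, was higher (0.39 ± 0.08) and H1FX lower (-0.26 ± 0.06). These shares stand beside the background of 5.2% higher and 3.49% lower. The calls rest on the same small variance estimates as those of the members, and each was lost under some of the alternative settings. Without run as a block, 15 of all 17014 genes were called higher and 1 lower. In TE-like cells alone and in the interaction, 0 genes of the 4 lists passed.
Between classes, SLBP was higher in TE-like cells, at a log2 fold change of 0.87 ± 0.09, and so were FIP1L1, ERI1 and SRRT. Those 4 were among 5 of 18 factors of 3′ end formation called higher, with 3 lower, NCBP2 (-0.76 ± 0.09) and CPSF2 (-0.50 ± 0.12) among them. Of the 11 regulators, CCNE1, the cyclin that activates NPAT with CDK2, was higher (0.74 ± 0.12), and E2F1 (-0.86 ± 0.16), GON4L (-0.72 ± 0.12) and CASP8AP2 (-0.35 ± 0.13) were lower. NPAT had -0.06 ± 0.14 and did not pass. Of the 22 chaperones, 3 were higher (RBBP7 at 0.50 ± 0.11, ASF1A at 0.46 ± 0.13 and NASP at 0.35 ± 0.07) and 4 lower, ATRX (-0.75 ± 0.11) and HAT1 (-0.46 ± 0.11) among them. The variants were mostly higher, in 8 of 11 tested, led by H2AFY (1.97 ± 0.11), H1F0 (1.47 ± 0.13) and H3F3B (0.99 ± 0.07), and the centromeric H3 gene CENPA was lower (-0.95 ± 0.11). The background here was 22.6% higher and 25.7% lower.

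Promoters were compared last, because many members moved together. RefSeq promoters (GRCh38.p14, 250 bases before to 50 after the start) were found for 64 of the 71 members. The window of HIST1H3D was left out, because it lies 2007 bases from the start of that gene's canonical transcript and equals the window of HIST1H2AD. In the other 63 windows, 4 motifs were searched on both strands. Windows of neighbouring genes on opposite strands can overlap, as those of HIST1H2AC and HIST1H2BC do. The same site can then be counted for both genes, so the counts are of members and not of independent sites. The TATA box TATAAA was present in 42 of 63 (66.7%), against 11.5% of 35116 promoters of the same length. CCAAT was present in 53 of 63 (84.1%), against 34.6% of all promoters. It was in every H1, H2A, H2B and H3 promoter and in 3 of 13 H4 promoters. The octamer ATTTGCAT, bound by POU2F1, was in 25 of 63 (39.7%), against 1.77% of all promoters, with 11 of 14 H2A, 14 of 18 H2B, and 0 of the H1, H3 and H4 promoters. The H1 box AAACACA was in 6 of 6 H1 promoters and 9 of 63 in all (14.3%), against 5.64% of all promoters. The 160 bases before the start are shown for 1 member of each type, with these motifs in capitals on either strand. Motifs elsewhere in the searched window were counted but are not shown, such as the octamer and the H1 box of HIST2H2AC.
HIST1H1D (chr6:26234988-26235147, minus strand): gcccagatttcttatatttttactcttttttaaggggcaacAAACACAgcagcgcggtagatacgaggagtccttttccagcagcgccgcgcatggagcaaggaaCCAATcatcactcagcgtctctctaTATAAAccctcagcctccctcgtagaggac
HIST2H2AC (chr1:149886758-149886917, plus strand): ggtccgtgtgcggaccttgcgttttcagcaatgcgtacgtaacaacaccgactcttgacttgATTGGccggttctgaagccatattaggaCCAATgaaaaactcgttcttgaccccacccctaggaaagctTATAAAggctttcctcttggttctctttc
HIST1H2BH (chr6:26251454-26251613, plus strand): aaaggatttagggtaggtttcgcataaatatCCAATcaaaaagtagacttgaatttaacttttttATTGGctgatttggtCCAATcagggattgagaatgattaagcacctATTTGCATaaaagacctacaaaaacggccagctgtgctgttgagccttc
HIST1H3B (chr6:26032100-26032259, minus strand): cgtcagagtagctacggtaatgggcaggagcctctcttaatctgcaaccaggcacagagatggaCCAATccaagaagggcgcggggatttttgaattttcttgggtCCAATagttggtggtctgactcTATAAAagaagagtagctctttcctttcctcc
HIST1H4H (chr6:26285535-26285694, minus strand): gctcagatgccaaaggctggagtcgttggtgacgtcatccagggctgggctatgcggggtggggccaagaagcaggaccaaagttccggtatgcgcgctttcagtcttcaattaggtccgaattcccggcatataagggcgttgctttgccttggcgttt
The HIST1H4H stretch holds none of the 4 motifs, which says only that these letters are not in this window. Among the members past the dose threshold in Epi-like cells, 13 of 20 with a promoter had the TATA box, 17 of 20 CCAAT, 7 of 20 the octamer and 4 of 20 the H1 box. Among the other members tested, 23 of 36 had the TATA box, 32 of 36 CCAAT, 17 of 36 the octamer and 3 of 36 the H1 box. A match is a description of the letters and does not show binding.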

How the data were processed

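Aggregates and blastoids made from naive H9 cells, given 0 or 4 mM dm-αKG, were hashtagged and sequenced in 2 runs of droplet 3′ RNA-seq (10x v3.1). The authors deposited raw UMI counts per gene and per hashtag, made with bcl2fastq 2.20.0.422 and Cell Ranger 6.1.2 on GRCh38 per the submitters' processing notes and methods, which name Seurat 4.3.0 for their own analysis. No cell annotation was used here.

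Hashtags were assigned with HTODemux (Seurat 5.3.0, R 4.3.3, positive quantile 0.99), which left 6012 singlets of 9431 barcodes in run 1 and 10400 of 15133 in run 2. Hashtag doublets (512 and 1142) were removed, and no other doublet caller was run. Cells with at least 7000 UMIs (run 1) or 5000 UMIs (run 2) and at most 15% mitochondrial UMIs were kept. The arm of a hashtag was taken from the deposited hashtag reference. The arms held 12275317 to 84756607 UMIs in kept cells.

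For each arm and class the UMIs of all cells were added up, and these sums were tested across all genes with edgeR 4.0.16 (TMM, filterByExpr, quasi-likelihood test, Benjamini-Hochberg), with run as a block for dose, since the 2 blastoid runs were independent experiments by the study's methods, and arm as a block for class. Aggregates, with 1 arm per dose, were not tested, and members with at least 100 UMIs over both arms together were described at a fold of 1.2. DESeq2 1.42.0 (with limma 3.58.1 installed), the fit without the block, no low-count filter, a class margin of 2 times, a mitochondrial limit of 10%, cells thinned to 5000 UMIs and leaving out each arm were the alternatives. Intervals are exact at 95% and cover counting error only. Within-run log2 ratios added 0.5 CPM. The edgeR script was tested on simulated data. Figures and sums used Python 3.11.15, numpy 2.4.6, pandas 2.3.3, scipy 1.17.1 and matplotlib 3.10.9.

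Genes were matched to GENCODE v44 by Ensembl ID for 69 of 71 members, and 97 of 97 histone promoters of the RefSeq table equalled the genome used. Values are named for the 12 members with the most UMIs, each further member past the dose threshold, the 6 largest differences between classes, up to 6 genes of each supply list and comparison, SLBP and NPAT. Of the class markers, 1 is not reported here and was left out of its sums. The members, lists and tests were chosen with earlier results of these data known.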

Additional observations from a re-analysis of the deposited data

Results flagged for a closer look

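The dose of dm-αKG went with opposite differences at the 2 stages. For all members together, the ratio of 4 mM to 0 mM was 0.817 in aggregates at 40 h, and 1.18 and 1.14 in Epi-like cells at 120 h (run 1 and run 2). It is listed because the one aggregate pair lay below 1 and both Epi-like pairs lay above 1; the difference between stages was not tested, since aggregates had 1 arm per dose. The share of S-called cells differed by dose in the same directions, with 19.7% at 4 mM and 24.7% at 0 mM in aggregates, and 26.9% and 23.9% at 4 mM against 22.3% and 21.9% at 0 mM in Epi-like cells. The share of singlets kept by the cell filters also moved in the same directions, with 55.7% at 4 mM and 71.7% at 0 mM in aggregates, and 73.1% and 89.0% at 4 mM against 44.8% and 81.05% at 0 mM in blastoids; its part in the difference was not tested. At the phase shares of UMIs of the 0 mM arm the ratios were 0.904, 1.16 and 1.12 in the same order. Other parts of cell handling were not tested.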

How the results depend on the processing

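The dose difference in Epi-like cells depended on the test. The 24 members called higher became 0 with DESeq2, 0 without run as a replicate block and 4 with thinned cells, while other settings gave 23 to 27. The 2 runs are pairs because each holds both doses of 1 independent experiment. For TE-like over Epi-like cells, the 34 members called higher became 14 with thinned cells, 25 without arm as a block, 26 with DESeq2, and 26 to 30 with 1 arm left out. With thinned cells the all-member ratio was 0.828 in aggregates and 0.608 for Epi-like cells over aggregates at 0 mM, and H2A for Epi-like cells over aggregates at 4 mM turned to 0.938. The direction turned for HIST1H1C in the Epi-like dose comparison with thinned cells (log2 0.063), and for NPAT between classes with thinned cells (0.16) and without the run 2 arm at 4 mM (0.013). The NPAT value ranged from -0.15 to 0.013 with 1 arm left out. With phases called from z-scored list shares, the S to G1 ratios of all members were 4.14 in aggregates, 2.40 in Epi-like and 1.93 in TE-like cells (3.84, 1.92 and 1.82 by the main call), and the G2/M to G1 ratios were 3.498 in aggregates and 2.37 in Epi-like cells (3.39 and 2.11). HIST1H4C was seen in 96.1% of aggregate cells, 95.3% of run 1 and 84.1% of run 2 Epi-like cells without thinning, and in 61.3%, 56.2% and 48.8% at 3000 UMIs. Apart from these constructions, the causes were not tested.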
